A study of Nannospalax ehrenbergi and Mus musculus with 25 samples.

Results

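Of the 25 RNA-seq libraries of the series, 8 were compared here, namely all those taken from the injected side of Spalax. They were chosen by their labels alone and comprise 4 libraries of tolerant animals, which had received the carcinogen and grew no tumor, and 4 libraries of tumor tissue, with 2 from granuloma and 2 from fibrosarcoma. Spalax is the blind mole rat, a long-lived subterranean rodent, and 3-methylcholanthrene (3MCA) is a polycyclic hydrocarbon that damages DNA and gives rise to sarcomas at the injection site. All 8 animals had a single injection under the skin of the neck flank, and all 8 were caught in the wild, so that age was only estimated and ancestry was not controlled.

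The tolerant animals were sampled by a biopsy of neck muscle. Animals 2251 and 2261 were males taken 18 months after the injection, and animals 2218 and 2375 were a male and a female taken after 30 months. In the tumor-bearing animals the growth was excised and its most proximal piece was used. The granulomas came from females 600 and 976, after 14 and 16 months, and the fibrosarcomas from female 2240 after 18 months and male 2230 after 30 months. A granuloma is a benign mass of spindle cells and fibrosis at a site of inflammation, whereas a fibrosarcoma is a malignant tumor of fibroblast-like cells. The tumor group therefore joins a benign and a malignant lesion, and it was also compared by kind. Sex is unequal between the groups, with 3 males of 4 in tolerant and 1 male of 4 in tumor. All tolerant libraries carried dual sequencing indexes and all tumor libraries single ones, so index and group cannot be told apart.

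Skeletal muscle is built of long multinucleated fibers that do not divide. They are packed with contractile filaments, store calcium in an internal reticulum and draw most of their energy from mitochondria. Tumors of the fibroblast lineage divide, lay down collagen and other extracellular matrix (ECM), cut that matrix with metalloproteases and hold macrophages and other immune cells. The comparison asks how the tissue at the injection site differs between animals that stayed free of a tumor and animals that did not.

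Levels are given as normalized read counts, that is, reads divided by 1 size factor per library. Values of the tolerant libraries stand in the order 2251, 2261, 2218 and 2375, those of granuloma in the order 600 and 976 and those of fibrosarcoma in the order 2240 and 2230. Differences are means of log2(normalized read count + 1), tumor minus tolerant, tested by limma across all genes. A gene is said to have risen or fallen in tumor where its adjusted p was at most 0.05. The 8 libraries held between 18440248 and 22246843 reads, and a normalized read count of 10 rests on 7.46 to 16.7 reads, so counting error mainly limits genes near that level. Genes needed a count of at least 10 in 4 of the 8 libraries. A gene that passed through only 1 group had to differ, and counts over the members of a list are therefore descriptions. In bulk tissue, fewer cells of a type and less RNA per cell cannot be told apart.

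A large share of the transcriptome differed between the tissues. Of 14578 genes tested, 3264 rose and 3502 fell in tumor, which is 22.4% and 24% of the genes and 46.4% together. A difference of at least 4-fold was reached by 1437 of the rising genes (9.86%) and 1655 of the falling ones (11.4%). The 4 tumor libraries did not overlap with the 4 tolerant ones in 6080 genes (41.7%), with tumor above tolerant in 2796 (19.2%) and below it in 3284 (22.5%). The balance between rises and falls depends on the scaling. When the libraries were scaled to equal totals of reads, the median difference of all genes moved by 0.66, and 5646 of the 7822 calls were rises (72.2%), against 3264 of 6766 with the deposited size factors. A difference smaller than 0.66 in size can change sign between these scalings. edgeR on the recovered reads called 6422 genes (44.1%, with 21.2% rising and 22.8% falling). With sex as a covariate 6329 genes were called, and with only the animals of 18 and 30 months (4 tolerant, 2 fibrosarcoma) 4387.

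**Figure D1:**
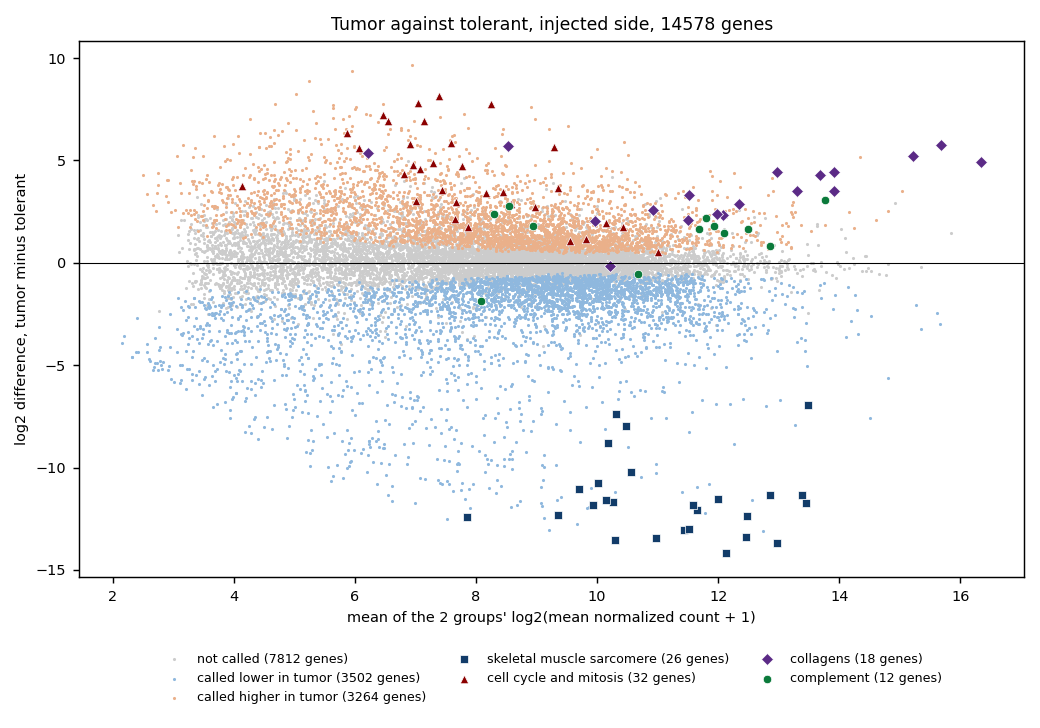
Log2 difference between tumor and tolerant libraries for each of the 14578 genes tested, on the vertical axis, against its mean log2 level on the horizontal axis. Gray points were not called, blue and orange points were called lower and higher in tumor at an adjusted p of at most 0.05, and larger symbols mark 4 gene lists. The 26 sarcomere genes lie between -14.16 and -6.95, and the collagens and cell cycle genes mostly above 0.

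Before single genes are described, a departure within the tolerant group must be stated. On the first principal component, which carried 73.4% of the variance, the tumors lay between 105.7 and 146.3, tolerant 2261, 2218 and 2375 between -175.2 and -133.5, and tolerant 2251 at -54.9. Its place was measured gene by gene over genes that differed at least 4-fold when 2251 itself was left out of the fit. Over 2171 genes higher in tumor, 2251 lay a median 59.7% of the way (quartiles 41% and 82.7%) from the mean of the other tolerant libraries to the tumor mean. Over 1891 genes lower in tumor it lay 28.4% of the way (quartiles 14.8% and 43.2%). Each of the other 7 libraries, placed in the same way by a fit without it, lay between -29.6% and 12.3% in both sets of genes. The genes used differ between libraries, and these positions are descriptions without a test. The reference of tolerant 2261, 2218 and 2375 includes 2251, which moves that reference toward the tumors and lowers their positions. Without 2251 the number of called genes rose from 6766 to 7879 (53% of 14871 genes tested), with 27.2% rising and 25.8% falling.

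The displacement of 2251 was uneven among the gene lists. It lay a median 111% of the way over 9 complement genes, 109% over 20 macrophage markers, 82.9% over 12 innate sensors, 77.9% over 14 matrix glycoproteins and 62.3% over 17 collagens. In energy genes it lay 49.7% of the way over 18 citrate cycle genes and 47.4% over 16 of fatty acid oxidation. Over 13 genes of glycolysis and glucose uptake it lay 33.1% of the way. By contrast, it had moved 29.5% of the way over 26 cell cycle genes, 11.2% over 26 sarcomere genes and 4.44% over 13 myogenic regulators. In complement genes and macrophage markers this biopsy thus stood at the level of the tumors, and in contractile and myogenic genes beside the other tolerant muscles. Other libraries were displaced in single lists too. Granuloma 600 lay a median 88.8% of the way to tolerant over 14 interferon genes. It lay 71.2% over 11 T and NK cell markers and 45.8% over 8 innate sensors. Fibrosarcoma 2230 lay 117% of the way over 5 oncofetal genes, and tolerant 2375 62.1% over 5 secreted Wnt antagonists.

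**Figure D2:**
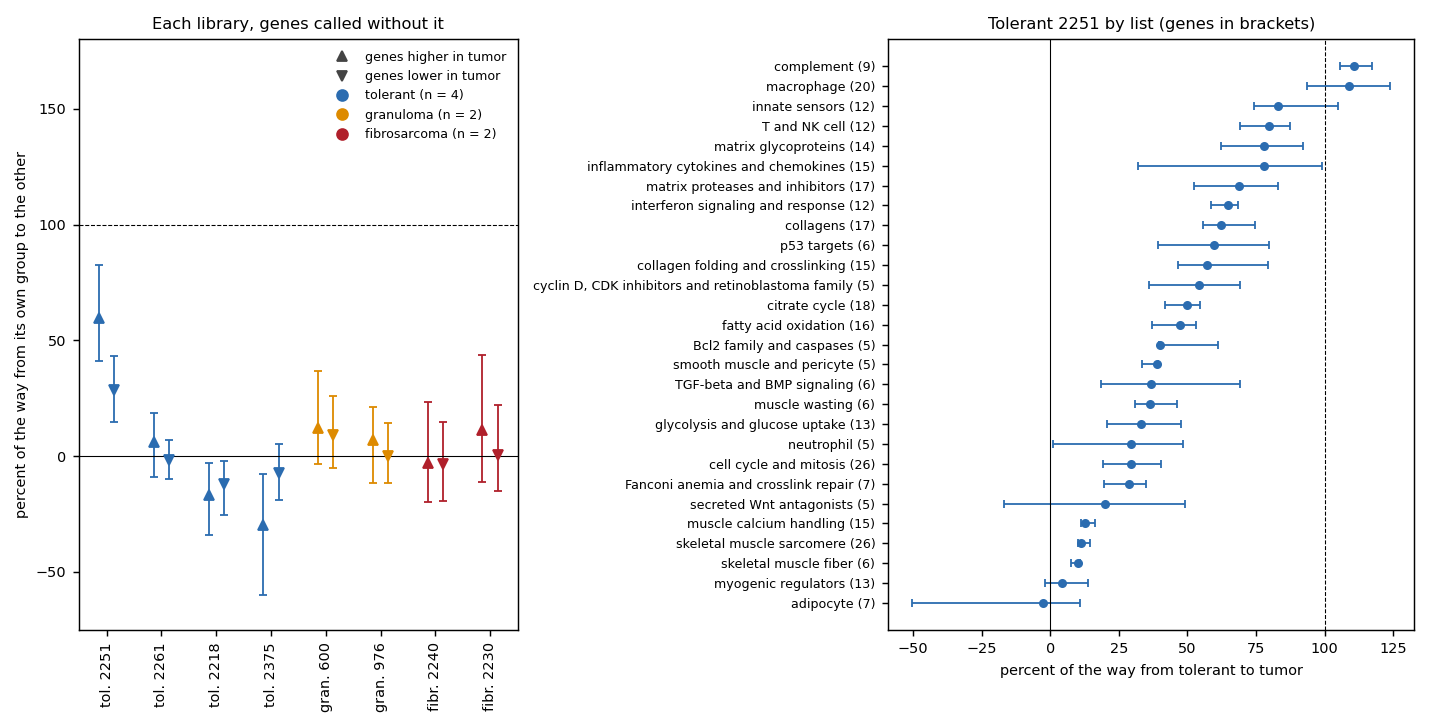
Left, position of each library, as the percent of the way on the log2 scale from the mean of the other libraries of its own group (0) to the mean of the other group (100), over genes called at least 4-fold without that library. Points are medians and bars quartiles over genes. Right, the same measure for tolerant 2251 within each list that holds at least 5 such genes. Tolerant 2251 reaches 59.7% on the left and ranges from -2.64% (adipocyte markers) to 111% (complement) on the right.

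The labelled tissue was compared with defining markers. The summed normalized read count of 6 muscle fiber markers was 857020 to 2588290 in the tolerant libraries and 151 to 3673 in the tumors, with the highest tumor value in granuloma 600. The tissue named muscle was thus rich in muscle RNA in all 4 tolerant libraries, 2251 included, and the tumors held little of it. The sum of 22 macrophage markers was 66286 in tolerant 2251, 2919 to 13357 in the other 3 and 30787 to 107967 in the tumors. That of 11 fibroblast markers was 44831 in 2251, above the other 3 (3703 to 18417) and above the 4 tumors (15021 to 32161). The 5 mast cell markers summed to 656 in 2251 and to at most 136 in the other 7 libraries.

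Keratins of the basal epidermis were high in 2251. Krt5, a keratin of basal epidermal cells, stood at 343 in 2251 and was listed at 0 in the other 7 libraries and in all 8 uninjected-side and control libraries of Spalax. Krt15, a keratin of the hair follicle and basal epidermis, had 288, 0, 1.32 and 1.34 in tolerant, and Krt14, which pairs with Krt5 and was chosen after its values were seen, 265, 7.66, 0 and 1.34, with 0.726 and 88.8 in granuloma and 11.7 and 22.8 in fibrosarcoma. Keratins of simple epithelia, also named after their values were seen, did not set 2251 apart, with 24.0, 15.3, 27.8 and 25.5 of Krt8 and 8.26, 6.57, 6.61 and 16.1 of Krt18 in tolerant. The sum over 8 epithelial markers, which hold Krt5 and Krt14 but not Krt15, was 3066 in 2251, 865 to 1334 in the other tolerant libraries and 218 to 1953 in the tumors, and Krt10 made up most of it in 2251 (2079). The part of these cell types in the differences between the groups was not tested.

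**Figure D3:**
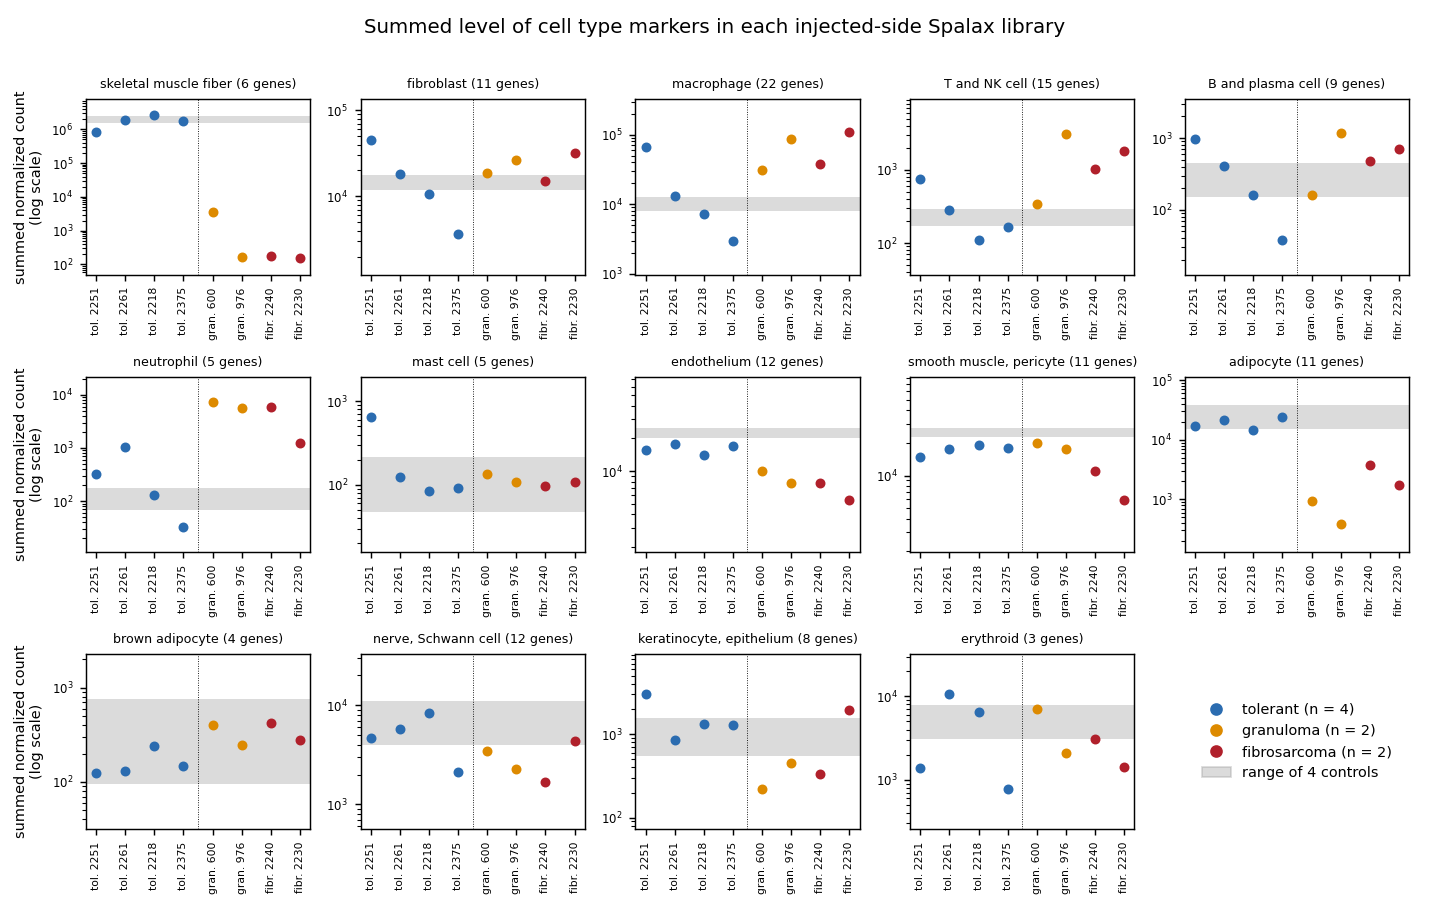
Summed normalized read count (log scale) of the markers of 14 cell types in each of the 8 injected-side libraries, with the range of the 4 untreated controls in gray. Muscle fiber, adipocyte, endothelium and neutrophil sums separate the groups, and brown adipocyte sums do so narrowly. Tolerant 2251 lies within the tumor range of macrophage markers. In fibroblast markers 2251 lies above the tumor range and tolerant 2261 within it.

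The contractile genes fell without exception. Of 29 listed sarcomere genes, 26 had a row in the table, all 26 passed the filter and all 26 fell, with a median log2 difference of -11.79 against 0.06 over all genes tested. Ckm, the muscle creatine kinase that buffers ATP, had 151433, 348326, 543373 and 343558 normalized read counts in tolerant, 208 and 9.06 in granuloma and 5.53 and 5.40 in fibrosarcoma. Every tumor lay far below every tolerant muscle, and granuloma 600 kept the most. The log2 difference was -14.16 (SE 1.04, adjusted p 2.27e-05). Acta1, skeletal muscle actin, had 213149, 509852, 782723 and 394977 in tolerant, 858 and 56.8 in granuloma and 72.5 and 66.0 in fibrosarcoma, a difference of -11.74 (SE 0.84, adjusted p 2.07e-05). For Ttn, the giant spring protein titin, it was -11.36 (SE 1.03, adjusted p 6.45e-05). The 10 largest falls of all genes, apart from provisional symbols, were all genes of muscle. They were Ckm, the oxygen store Mb (-13.70), the slow myosin heavy chain Myh7 (-13.56), the myosin light chains Myl2, Myl1 and Mylpf (-13.44, -13.38 and -13.07), the fast troponin C Tnnc2 (-13.01), the Z-disc protein Myot (-12.76), Apobec2 (-13.04) and Dhrs7c (-12.49), the last being an enzyme of the muscle reticulum.

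Calcium handling and muscle identity went the same way. All 15 calcium handling genes passed the filter and fell, with a median of -10.25. Ryr1, the calcium release channel, had 40537, 64728, 82767 and 99969 in tolerant, 364 and 10.9 in granuloma and 11.1 and 13.2 in fibrosarcoma. Atp2a1, the pump that returns calcium to the reticulum, fell by 11.60 on the log2 scale (SE 0.53) and had the smallest adjusted p of all genes, 5.65e-06. Casq1, the calcium buffer of the reticulum, fell by 10.25 (SE 0.87, adjusted p 4.69e-05). Of the myogenic regulators, 16 of 19 genes in the table passed the filter and 13 of them fell, none rising. Myod1, the transcription factor that commits cells to muscle, had 789.7, 570.5, 979.8 and 1089.6 in tolerant, 9.44 and 0 in granuloma and 0 and 0.600 in fibrosarcoma. It was thus nearly absent from all tumors, and all tolerant libraries lay close together. The difference was -8.69 (SE 0.75, adjusted p 5.08e-05). Myog, which drives fusion into fibers, fell by 8.73 (SE 0.97, adjusted p 0.000199), and Myh8, a myosin of newborn and regenerating fibers, by 9.95 (SE 1.51, adjusted p 0.00104). Pax7, the satellite cell factor, stayed under the filter with 15.0, 19.7, 9.26 and 5.36 in tolerant and at most 0.615 in the tumors.

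**Figure D4:**
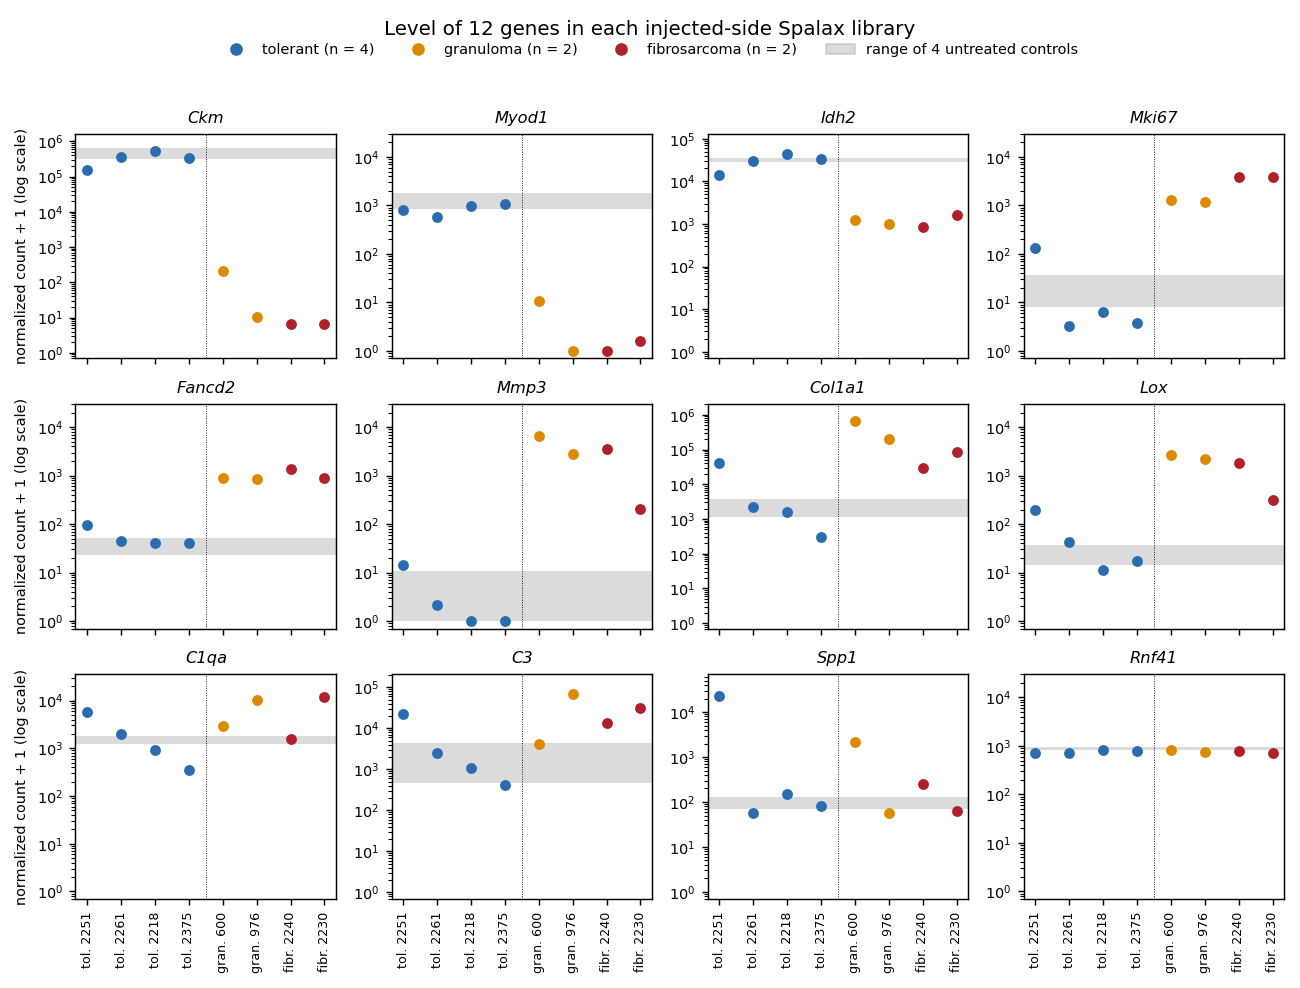
Normalized read count plus 1, on a log axis, of 12 genes in each of the 8 injected-side libraries, with the range of the 4 untreated controls in gray. In Ckm, Myod1, Idh2, Mki67, Fancd2, Mmp3 and Lox the groups do not overlap, in Col1a1, C1qa, C3 and Spp1 tolerant 2251 lies within or above the tumors, and Rnf41 stays level.

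Mitochondrial energy genes fell throughout, by less than the contractile genes. All 18 citrate cycle genes and all 16 genes of fatty acid oxidation fell, with medians of -2.60 and -2.77. Idh2, the mitochondrial isocitrate dehydrogenase, had 14296, 29916, 43459 and 33678 in tolerant, 1214 and 1020.5 in granuloma and 853 and 1593 in fibrosarcoma, a difference of -4.62 (SE 0.37, adjusted p 3.45e-05). The 4 tumors lay within a narrow band, and 2251 held the lowest tolerant value. Cs, citrate synthase, fell by 2.15 (SE 0.33) and Sdha, a subunit of succinate dehydrogenase, by 3.86 (SE 0.42). Cpt1b, which admits long fatty acids to the mitochondria of muscle, had 4058, 9907, 11123 and 16768 in tolerant, 187 and 157 in granuloma and 106 and 225 in fibrosarcoma, a difference of -5.83 (SE 0.42, adjusted p 2.2e-05). Acadm and Hadha, enzymes of the oxidation spiral, fell by 4.77 (SE 0.42) and 2.11 (SE 0.47), and the difference of the fatty acid carrier Fabp3 was -8.13 (SE 0.74).

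Glycolysis was split between isoforms. Of 18 genes tested, 10 fell and 5 rose, beside 24% falling and 22.4% rising of all genes. Slc2a4, the insulin-regulated glucose transporter of muscle and fat, had 2807, 8822, 11976 and 10966 in tolerant, 31.9 and 11.5 in granuloma and 13.5 and 15.0 in fibrosarcoma (-8.75, SE 0.50, adjusted p 8.7e-06). Slc2a1, the transporter of most dividing cells, had 324, 301, 271 and 165 in tolerant, 6902 and 823 in granuloma and 4721 and 965 in fibrosarcoma (3.13, SE 0.68, adjusted p 0.00564). It was highest in granuloma 600 and fibrosarcoma 2240. Pgam2, the muscle isoform of phosphoglycerate mutase, fell by 12.47 (SE 0.85, adjusted p 1.64e-05), whereas Hk1, the hexokinase of most tissues, rose by 3.16 (SE 0.57, adjusted p 0.00237). The other rising genes, named after their values were seen, were Pfkl (2.54), Pgam1 (2.56) and Eno1 (2.83), each an isoform that is not particular to muscle. Of 14 genes tied to muscle wasting, 6 fell and 0 rose, beside the same shares of all genes. Without tolerant 2251 1 rose. The ubiquitin ligases Trim63 and Fbxo32, which mark proteins of wasting muscle for degradation, fell by 10.05 (SE 0.91) and 5.58 (SE 0.87). Tolerant 2375 held far more of both than the other 3, with 55174 of Trim63 against 2724 to 7495 and 24693 of Fbxo32 against 1795 to 3206.

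Genes of cell division rose together. Of 32 listed genes all passed the filter and 29 rose, with a median of 4.04. In 29 the groups did not overlap, beside 41.7% of all genes tested. Mki67, which marks cycling cells, had 131, 2.19, 5.29 and 2.68 in tolerant, 1286 and 1180 in granuloma and 3823 and 3859 in fibrosarcoma. Tolerant 2251 lay far above the other tolerant muscles and far below the tumors, and both fibrosarcomas lay above both granulomas. The difference was 7.78 (SE 1.11, adjusted p 0.000782). Top2a, which untangles DNA, had 161, 53.7, 56.9 and 83.1 in tolerant, 3542 and 2596 in granuloma and 5519.7 and 5599 in fibrosarcoma (5.66, SE 0.40, adjusted p 1.96e-05). The 10 largest rises of all genes, again apart from provisional symbols, included the cytokinesis scaffold Anln (8.15), the spindle motor Kif11 (7.83), the spindle protein Dlgap5 (7.78), Mki67, the replication checkpoint protein Clspn (7.69) and Depdc1 (7.58). Cdk1, the kinase that starts mitosis, was an exception. It had 433, 181, 604 and 1481 in tolerant, 976 and 734 in granuloma and 1504 and 1585 in fibrosarcoma, so that the groups overlapped through tolerant 2375, and its difference of 1.15 (95% interval -0.14 to 2.44) had an adjusted p of 0.126.

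Among cyclins D, cyclin-dependent kinase inhibitors and retinoblastoma genes, 7 of 14 rose and 1 fell, beside 22.4% rising and 24% falling of all genes. Ccnd1 and Ccnd2, which carry growth signals into the cell cycle, rose by 3.60 (SE 0.94) and 4.07 (SE 1.01). Rb1, the retinoblastoma protein that restrains division, was the single fall, with 954, 1197, 1066 and 1194 in tolerant, 269 and 305 in granuloma and 644 and 456 in fibrosarcoma (-1.48, SE 0.29, adjusted p 0.00355), and with equal totals of reads its call was lost. Cdk6, a partner of the D cyclins, had 23.3, 8.76, 5.29 and 2.68 in tolerant, 206 and 189.7 in granuloma and 7499 and 19.2 in fibrosarcoma. Its value in fibrosarcoma 2240 stood far above all others, and fibrosarcoma 2230 lay within the tolerant range. Cdkn1a, the inhibitor p21, had 638, 118, 151 and 131 in tolerant, 338 and 126 in granuloma and 486 and 299 in fibrosarcoma, with the highest value in tolerant 2251 and no call (0.51, 95% interval -0.85 to 1.87).

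Lists of stress and cell death genes held rises and falls. Of 19 genes tested of p53 and its targets, 7 rose and 5 fell, beside 22.4% rising and 24% falling of all genes. With equal totals of reads 8 of them rose and 2 fell. Bax, which opens the mitochondrial membrane in apoptosis, had 598, 354, 329 and 269 in tolerant, 907 and 741 in granuloma and 925 and 1295 in fibrosarcoma, without overlap (1.35, SE 0.29, adjusted p 0.00549). Mdm2, a ubiquitin ligase, fell by 1.14 (SE 0.25, adjusted p 0.00654), and Ccng1, a cyclin abundant in muscle, by 4.31 (SE 0.37, adjusted p 5.29e-05). Gdf15, a stress cytokine, rose by 4.09 (SE 1.25), with 63.1 in tolerant 2251 and at most 5.47 in the other tolerant libraries. Of 16 Bcl2 family and caspase genes, 8 rose and 3 fell, and without tolerant 2218 4 rose and 3 fell. With equal totals of reads 8 rose and 2 fell. Bcl2l11, the death activator Bim, rose by 2.27 (SE 0.54), while Bcl2a1, Bcl2l2 and Bad fell. Bcl2, which guards against death, was not called (-1.27, 95% interval -2.77 to 0.23).

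Collagen genes rose with 1 exception. Of 18 collagen genes tested, 17 rose, with a median of 3.53, and Col15a1 was not called. In 10 of the 18 the groups did not overlap, beside 41.7% of all genes tested. Col1a1, the main chain of type I collagen, had 39809.8, 2180, 1580.1 and 302 in tolerant, 677303 and 205712 in granuloma and 30015 and 85128 in fibrosarcoma. Tolerant 2251 exceeded fibrosarcoma 2240 and was far above the other tolerant libraries, and the granulomas were highest. The difference was 5.76 (SE 1.44, adjusted p 0.0108), and without 2251 7.08. Col3a1, of type III collagen, rose by 4.94 (SE 1.49, adjusted p 0.0241) and Col6a1, of the pericellular type VI, by 3.52 (SE 0.77, adjusted p 0.00605), the latter without overlap. When only animals of 18 and 30 months entered, which leaves out the granulomas, 8 of the 18 collagens were called. Enzymes that fold and crosslink collagen followed, with 17 of 20 rising. Lox, which crosslinks the fibers, had 196, 42.7, 10.6 and 16.1 in tolerant, 2615 and 2176 in granuloma and 1783 and 319.6 in fibrosarcoma (5.22, SE 0.95, adjusted p 0.00252). P4ha1, a prolyl hydroxylase, and Serpinh1, the collagen chaperone, rose by 2.23 (SE 0.42) and 2.45 (SE 0.74), and Adamts14, which trims procollagen, by 5.59 (SE 0.98).

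The other matrix classes were less uniform. Of 24 matrix glycoproteins, 11 rose, beside 22.4% of all genes tested. Without tolerant 2251 14 rose, beside 27.2% of all genes. Cthrc1, secreted by activated fibroblasts, had 329, 39.4, 19.8 and 2.68 in tolerant, 10918 and 8780.2 in granuloma and 1231 and 923 in fibrosarcoma (6.67, SE 1.33, adjusted p 0.00389). Tnc, tenascin C, rose by 5.89 (SE 1.35, adjusted p 0.00733), and its relative Tnn was among the 10 largest rises (7.62, SE 1.39). Fn1, fibronectin, had 61759, 5163, 3199.9 and 956 in tolerant, 82333 and 70521 in granuloma and 10569.7 and 51403 in fibrosarcoma. It missed the call with an adjusted p of 0.07 and was called without 2251, at 0.0036. Of the small leucine-rich proteoglycans, which bind collagen fibrils, 10 passed the filter and only Bgn rose (4.25, SE 1.15, adjusted p 0.0152), under the deposited, TMM and equal-total scalings alike. Dcn, decorin, had 32391, 23348, 13118 and 4837 in tolerant, 21124 and 28090.5 in granuloma and 3483 and 55605 in fibrosarcoma, a difference of 0.32 (95% interval -1.67 to 2.30). Lum, lumican, had 16434, 3943, 2746 and 295 in tolerant, 54200.3 and 52461 in granuloma and 1302 and 2843 in fibrosarcoma and was not called either (1.91, 95% interval -1.48 to 5.30). Both granulomas lay far above both fibrosarcomas. In a limma model of 3 groups Lum rose in granuloma (4.31, adjusted p 0.0393) and was not called in fibrosarcoma (-0.48, adjusted p 0.793). In a matrix network of 10 genes that the study drew from these same libraries, which is not independent evidence of its direction, 9 passed the filter and 0 were called by limma, the smallest adjusted p being 0.0514. At an unadjusted p under 0.05 1 of them passed, and edgeR called 0. With only the animals of 18 and 30 months 4 fell, and without granuloma 600, without fibrosarcoma 2240 or with sex as a covariate 1 fell. The study described its matrix genes as mostly raised in granulomas and lowered in fibrosarcomas, relative to uninjected tissue. The pooled comparison joins both kinds and uses tolerant muscle instead. By kind, the median difference of the 10 genes from tolerant was 0.76 in granuloma, where 1 rose and 1 fell. In fibrosarcoma it was -1.91, where 0 rose and 2 fell.

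**Figure D5:**
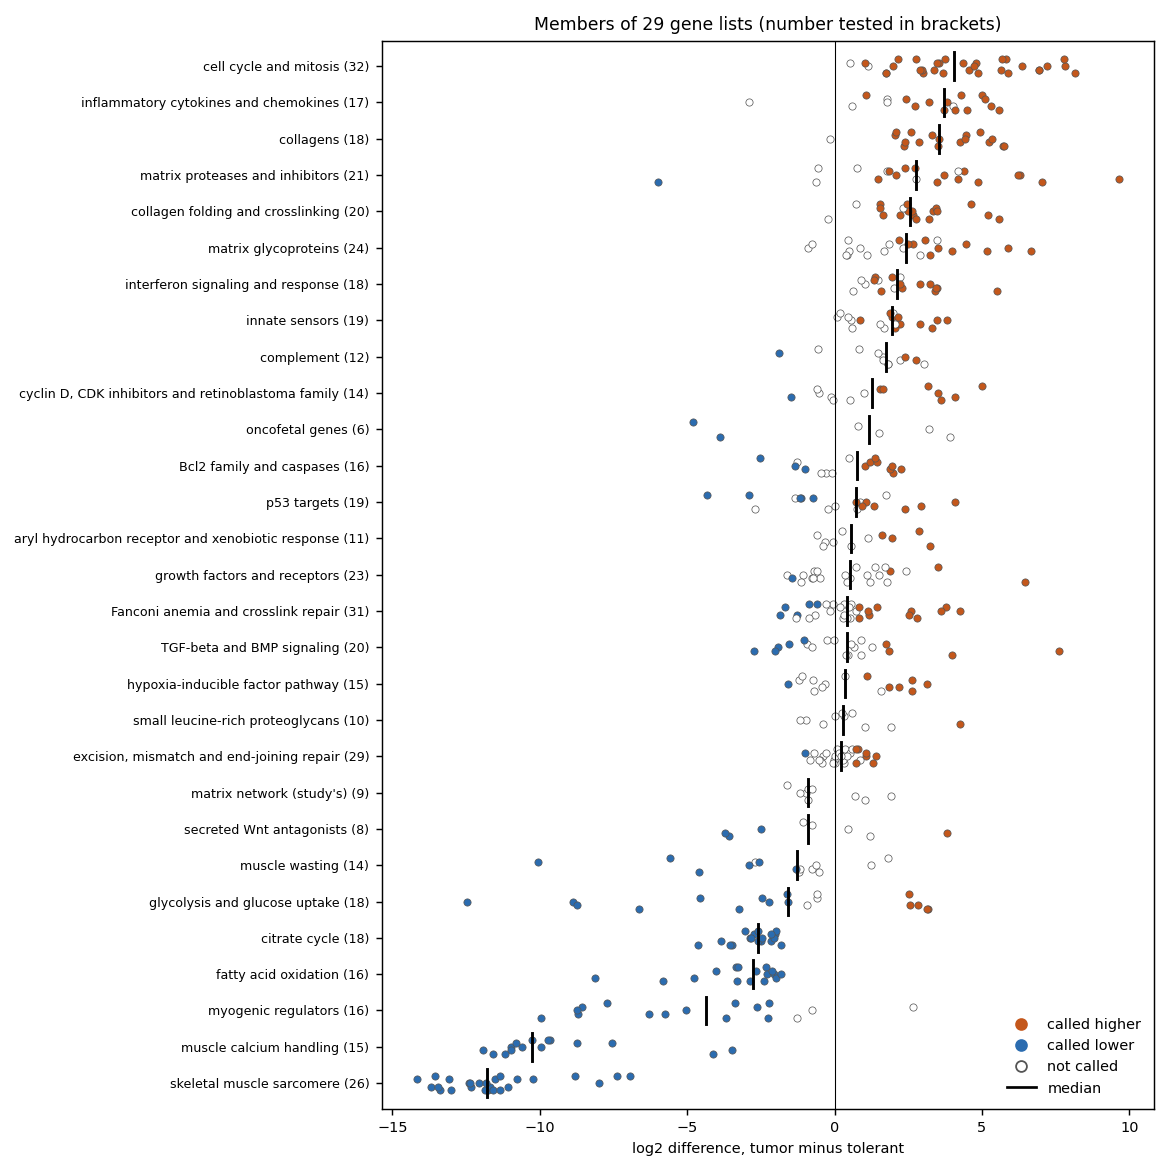
Log2 difference between tumor and tolerant libraries for each tested member of 29 gene lists, one row per list, ordered by the median (black bar). Orange and blue points were called higher and lower in tumor, and open points were not called. Sarcomere and calcium genes lie at the bottom with medians of -11.79 and -10.25, and cell cycle genes at the top with 4.04.

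Matrix proteases held the largest rise of all named genes. Mmp3, stromelysin, which cuts several matrix proteins and activates other proteases, had 13.5, 1.09, 0 and 0 in tolerant, 6484 and 2794 in granuloma and 3553 and 201 in fibrosarcoma. The tolerant libraries were at or near 0 and all tumors far above them. The difference was 9.66 (SE 1.20, adjusted p 0.000373). Mmp14, the membrane protease that activates Mmp2, had 4113, 851, 418 and 204 in tolerant, 15719 and 16186 in granuloma and 8023 and 28651 in fibrosarcoma, and rose by 4.39 (SE 0.82). Mmp2, gelatinase A, and Timp1, an inhibitor of these proteases, rose by 3.49 (SE 0.73) and 3.72 (SE 0.97). Timp4, an inhibitor found mainly in muscle and heart, was the single fall, with 193, 649, 379 and 509 in tolerant, 2.18 and 1.81 in granuloma and 3.07 and 40.8 in fibrosarcoma (-5.99, SE 0.86, adjusted p 0.000801). In all, 14 of 21 genes of this list rose, beside 22.4% of all genes tested. Without tolerant 2251 18 rose, beside 27.2% of all genes. Mmp12, the macrophage elastase, was the plainest case of that library, with 1606, 4.38, 2.64 and 2.68 in tolerant, 195 and 226 in granuloma and 159 and 32.4 in fibrosarcoma. All tumors lay above 3 of the tolerant libraries and below 2251, and the difference was 2.75 with 2251 (adjusted p 0.244) and 4.90 without it (adjusted p 0.000779). The genes in which 2251 stood farthest above the other tolerant libraries also included Spp1, osteopontin, with 23083, 56.9, 151 and 80.4 in tolerant, 2185 and 56.2 in granuloma and 251 and 62.4 in fibrosarcoma, and the collagen Col6a5, with 1927, 5.47, 5.29 and 2.68 in tolerant, 26.1 and 101 in granuloma and 24.0 and 473 in fibrosarcoma. In both, 2251 was the highest of all 8 libraries. Without it Spp1 had an adjusted p of 0.406 and Col6a5 of 0.0132.

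The count of immune genes that rose in tumor depended on tolerant 2251, which often lay among the tumors, and in some lists on the model. Of 12 complement genes tested, 2 rose and 1 fell with all 8 libraries, and 9 rose and 0 fell without 2251. The share of all genes that rose was 22.4% with all 8 libraries and 27.2% without 2251. With sex as a covariate 10 rose and 0 fell, and with equal totals of reads 4 rose and 0 fell. In none of the 12 did the groups of 4 stay apart, while they did in 41.7% of all genes tested. C3, the central complement protein, had 21919, 2572, 1108 and 411 in tolerant, 4247 and 69058 in granuloma and 13234 and 31176 in fibrosarcoma. Tolerant 2251 exceeded granuloma 600 and fibrosarcoma 2240. The difference was 3.05 (SE 1.22, adjusted p 0.0668), and 4.14 without 2251 (adjusted p 0.00706). C1qa, a chain of the first component that macrophages make, had 5879.5, 2031, 900.5 and 347 in tolerant, 2957 and 10413 in granuloma and 1551 and 11806 in fibrosarcoma, with an adjusted p of 0.134 with 2251 and 0.0327 without it. C1s, the protease of the first component, was not called in either fit (adjusted p 0.376 and 0.0665). The rising genes were the receptors C3ar1 (2.77, SE 0.99, adjusted p 0.0461) and C5ar1, and C7, of the membrane attack complex, fell by 1.87 (SE 0.61, adjusted p 0.0324). Leaving out other libraries lowered these counts. Without tolerant 2261, tolerant 2218 or fibrosarcoma 2230 0 genes were called, without tolerant 2375 or granuloma 976 0 rose and 1 fell, and without granuloma 600 1 rose and 0 fell. edgeR on the recovered reads called 0 rises and 1 fall, and with only the animals of 18 and 30 months 0 genes were called.

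Sensors of microbes and damage were likewise dependent on single libraries. Of 19 innate sensor genes, 10 rose with all libraries, 13 without 2251 and 6 without tolerant 2218. Among all genes, 22.4% rose with all libraries and 27.2% without 2251. Tlr4, the receptor of endotoxin, had 587, 308, 168 and 153 in tolerant, 488 and 1139.5 in granuloma and 900 and 1719 in fibrosarcoma (1.88, SE 0.50, adjusted p 0.0148). Its adaptor Myd88 rose by 2.04 (SE 0.49), the inflammasome sensor Nlrp3 by 2.90 (SE 0.69) and Tlr8, which senses RNA, by 3.82 (SE 1.04), the last 3 without overlap. The groups overlapped in every one of 18 interferon genes tested, while 41.7% of all genes did not overlap. Of the 18, 12 rose, and 15 did without 2251. The count was 6 without tolerant 2261, 3 without tolerant 2218 and 2 without tolerant 2375. It was 1 without granuloma 976, 4 without fibrosarcoma 2240 and 5 without fibrosarcoma 2230. Granuloma 600 acted otherwise. Without it 14 interferon genes differed at least 4-fold, against 8 with all 8 libraries. Irf1 and the interferon-gamma receptor Ifngr1 rose by 2.30 (SE 0.69) and 1.38 (SE 0.41), and the chemokine Cxcl10, which draws T cells, had 34.5, 12.0, 0 and 0 in tolerant, 6.53 and 1253 in granuloma and 1037 and 199.7 in fibrosarcoma, with granuloma 600 within the tolerant range.

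Cytokines and chemokines also depended on single libraries. Over 15 such genes called at least 4-fold without it, tolerant 2251 lay a median 77.9% of the way to the tumors. Of 17 cytokine and chemokine genes tested, 12 rose, 15 did without 2251, and 7 did without tolerant 2261, without tolerant 2218 or without granuloma 976. Among all genes, 22.4% rose with all libraries and 27.2% without 2251. Il1b, interleukin 1 beta, had 12.8, 104, 2.64 and 1.34 in tolerant, 488 and 1188 in granuloma and 1099.8 and 99.5 in fibrosarcoma, and its highest tolerant value was that of 2261, not 2251 (5.58, SE 1.23, adjusted p 0.00629). Il6, interleukin 6, had 3.00, 0, 1.32 and 0 in tolerant, 298 and 33.2 in granuloma and 65.8 and 17.4 in fibrosarcoma, without overlap (5.09, SE 0.90, adjusted p 0.0022). Tnf stayed low everywhere, at no more than 30.8, and was not called (1.77, 95% interval -0.87 to 4.40), though it was without 2251 (adjusted p 0.0472). Arg1, an arginase of alternatively activated macrophages, was among the 10 largest rises, with 18.0, 0, 0 and 0 in tolerant, 951 and 1169.7 in granuloma and 816 and 21.6 in fibrosarcoma (7.50, SE 1.44). The cell type markers were counted in the same way. Of 20 macrophage markers tested, 7 rose with all libraries, 19 without 2251, 17 with sex as a covariate and 12 with equal totals of reads. Without another library 3 (tolerant 2261), 1 (tolerant 2218), 2 (tolerant 2375), 1 (granuloma 976), 4 (fibrosarcoma 2240) or 2 (fibrosarcoma 2230) rose. Without granuloma 600, 6 macrophage markers differed at least 4-fold, against 7 with all 8 libraries. With edgeR 1 rose, and with only the animals of 18 and 30 months 0. Cd68, a lysosomal protein of macrophages, had 1476, 221, 56.9 and 53.6 in tolerant, 1469 and 1898 in granuloma and 2736 and 2339.9 in fibrosarcoma, whereas Cd163, of resident macrophages, was lowest in 2251 among all 8 libraries (24.0, 88.7, 84.6 and 69.7). Of 12 T and NK cell markers 8 rose, and 11 did without 2251. The number was 2 without tolerant 2261 or fibrosarcoma 2240, and 1 without tolerant 2218, tolerant 2375, granuloma 976 or fibrosarcoma 2230. Without granuloma 600, 11 T and NK cell markers differed at least 4-fold, against 8 with all 8 libraries. All 4 neutrophil markers tested rose. Endothelial markers fell in 8 of 12, but in 2 of 12 with equal totals of reads, and adipocyte markers fell in 7 of 10. Among all 14578 genes 24% fell, and with equal totals 2172 did. The share of these cell types in the gene differences was not tested.

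Lists of growth and signaling genes held rises and falls, beside 22.4% rising and 24% falling of all genes tested. Of 23 growth factor and receptor genes, 3 rose and 1 fell, and with equal totals of reads 6 rose and 0 fell. Fgfr2, a fibroblast growth factor receptor, had 29.3, 1.09, 0 and 2.68 in tolerant, 115 and 593 in granuloma and 539 and 369 in fibrosarcoma (6.45, SE 1.02, adjusted p 0.00124), and the other rising genes were Hgf and Fgf7. Pdgfb fell by 1.43 (SE 0.31). Pdgfra, Igf1 and Vegfa were not called, with adjusted p of 0.106, 0.285 and 0.48. Without 2251 6 genes of this list rose, and with sex as a covariate 5 rose and 2 fell. Of 20 genes of TGF-beta and BMP signaling, 4 rose and 5 fell, 7 rose and 5 fell without 2251, 8 rose and 2 fell with equal totals, 2 rose and 2 fell without tolerant 2218, and 3 rose and 3 fell with sex as a covariate. With all 8 libraries both counts are near the shares of all genes. Grem1, a secreted antagonist of BMPs, had 14.3, 3.28, 0 and 0 in tolerant, 1669 and 147 in granuloma and 451 and 844 in fibrosarcoma (7.61, SE 1.03, adjusted p 0.000571). Its ligand Bmp4 fell, with 131, 197, 157 and 157 in tolerant, 62.4 and 19.3 in granuloma and 40.6 and 5.40 in fibrosarcoma (-2.72, SE 0.66, adjusted p 0.00975). In this pair every tumor lay on one side of every tolerant library. Inhba, a subunit of activin, rose by 3.97 (SE 1.21), and Smad2 and Id2 rose as well, while Tgfb2, Smad6, Id1 and Id3 fell. Tgfb1 had its highest value in tolerant 2251 (1323, 287, 152 and 122) and was called only without that library (adjusted p 0.32 and 0.0126). Of 8 secreted Wnt antagonists Dkk3 rose (3.80, SE 0.86) and Sfrp5, Frzb and Dkk2 fell, and without 2251 2 rose and 3 fell.

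The hypoxia factors moved in opposite directions. Hif1a, the subunit stabilized when oxygen is short, had 1056, 529, 418 and 487 in tolerant, 3323 and 3312 in granuloma and 5546 and 2833 in fibrosarcoma and rose by 2.64 (SE 0.33, adjusted p 0.000404). Its relative Epas1 had 3301, 4557, 4531 and 4129 in tolerant, 1865 and 1120.2 in granuloma and 1188 and 1479 in fibrosarcoma and fell by 1.56 (SE 0.23, adjusted p 0.000811). Neither gene overlapped between the groups. Of 15 genes of this pathway 6 rose and Epas1 alone fell, beside 22.4% rising and 24% falling of all genes tested. Under equal totals of reads 7 rose and 1 fell, beside 5591 rising and 2172 falling of all 14578 genes. Both without tolerant 2251 and with sex as a covariate 5 rose and 2 fell. Without 2251 27.2% of all genes rose and 25.8% fell.

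The receptor of the carcinogen and the repair of its damage were examined next. 3MCA binds the aryl hydrocarbon receptor, which switches on the enzymes that oxidize it, and the products form adducts on DNA. Ahr, the receptor, had 348, 76.6, 23.8 and 21.4 in tolerant, 802 and 706 in granuloma and 345 and 630.3 in fibrosarcoma. Tolerant 2251 lay level with fibrosarcoma 2240, and the 3 other tolerant libraries far below. It rose by 3.25 (SE 0.81, adjusted p 0.0106), and without 2251 by 4.08. The list joins the receptor with genes of the wider xenobiotic response. Of its 20 genes 13 had a row. The oxidizing enzymes Cyp1a1 and Cyp1b1 had none, so their response was not measured. Of 11 genes tested, 4 rose (Ahr, Hmox1, Gclc and Srxn1) and 0 fell, beside 22.4% rising and 24% falling of all genes. With equal totals 6 rose, beside 5591 of all 14578 genes.

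Crosslink repair was split. The Fanconi anemia pathway repairs crosslinked DNA at stalled replication forks. Of its 31 genes 11 rose and 5 fell, beside 22.4% rising and 24% falling of all genes. With equal totals 19 rose and 1 fell, beside 5591 rising and 2172 falling of all 14578 genes. Fancd2, the protein that marks the damaged fork, had 96.1, 43.8, 39.7 and 38.9 in tolerant, 909 and 834 in granuloma and 1347 and 903 in fibrosarcoma (4.25, SE 0.35, adjusted p 4.04e-05). Brca1, its partner in recombination, had 57.1, 42.7, 33.1 and 46.9 in tolerant, 424 and 535 in granuloma and 768 and 844 in fibrosarcoma (3.78, SE 0.32, adjusted p 4.96e-05). Both stood apart in every tumor. Fanca, of the core complex, did not pass the test (0.33, 95% interval -0.48 to 1.14), and Fancc, of the same complex, fell by 1.86 (SE 0.52, adjusted p 0.0171), as did Fan1, Mus81, Telo2 and Polh. Of 29 genes of excision, mismatch and end-joining repair, 7 rose and 1, Xpa, fell, against 22.4% and 24% of all genes. With equal totals 15 rose and 0 fell, while of all 14578 genes 5591 rose and 2172 fell under that scaling. With sex as a covariate 5 rose and 0 fell, and without tolerant 2251 7 rose and 2 fell. Without tolerant 2261 or tolerant 2375 5 rose and 0 fell, and without tolerant 2218 or granuloma 600 4 rose and 0 fell. In 11 of the 29 the whole 95% interval lay within 1 of 0, as it did in 2458 of all 14578 genes. Ogg1, which removes oxidized guanine, had 133, 158, 136 and 154 in tolerant, 107 and 175 in granuloma and 212 and 163 in fibrosarcoma (0.14, 95% interval -0.53 to 0.80). Xpc, which finds bulky adducts, rose by 0.74 (SE 0.21, adjusted p 0.0208) and Nhej1, of end joining, by 1.42 (SE 0.43, adjusted p 0.0246).

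Some genes were level across both tissues. The 5 genes of mean count of at least 100 whose 95% interval stayed closest to 0 were Rnf41, Znf706, Gart, Cnot2 and Tlk1. Rnf41, a ubiquitin ligase, had 724, 725, 834 and 779 in tolerant, 809 and 731 in granuloma and 782 and 727 in fibrosarcoma, with an interval of -0.38 to 0.37. Gart, an enzyme of purine synthesis, had an interval of -0.40 to 0.38, Znf706 of -0.39 to 0.37, Cnot2 of -0.41 to 0.37 and Tlk1 of -0.41 to 0.41. These intervals hold for the deposited scaling, and with equal totals of reads all 5 differences stood between 0.63 and 0.65.

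Finally, each kind of lesion was set against the same 4 tolerant libraries in a model of 3 groups. Granuloma differed in 4619 of 15685 genes (29.4%), of which 1981 rose and 2638 fell, and fibrosarcoma in 5046 (32.2%), of which 2216 rose and 2830 fell. Both counts rest on 2 tumor libraries each and share the tolerant ones. Without granuloma 600 the first count fell to 1485 and without granuloma 976 to 1627. Without fibrosarcoma 2240 the second fell to 2481 and without fibrosarcoma 2230 to 3361. Leaving out tolerant 2261 or 2218 gave 2866 and 2839 for granuloma and 3064 and 3155 for fibrosarcoma. Between fibrosarcoma and granuloma limma called 0 genes, with 770 at an unadjusted p under 0.05, edgeR called 0 and DESeq2 191.

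Values of each kind side by side showed where the lesions were apart. Sln, which inhibits the calcium pump, had 48.6 and 50.8 in granuloma and 0 and 0.600 in fibrosarcoma, against 18684 to 53332 in tolerant. Alpl, a phosphatase that frees phosphate for mineral, had 179, 438, 719 and 1108 in tolerant, 87.8 and 161 in granuloma and 6.15 and 0.600 in fibrosarcoma, which made a difference of -2.07 (adjusted p 0.0976) in granuloma and -7.21 (adjusted p 0.000831) in fibrosarcoma. Postn, periostin of scar and fibrous tissue, had 20990.4, 1281, 118 and 85.8 in tolerant, 214855 and 79754 in granuloma and 6841 and 4003 in fibrosarcoma. Tolerant 2251 exceeded both fibrosarcomas, and the difference was 7.50 in granuloma (adjusted p 0.0243) and 2.85 in fibrosarcoma (adjusted p 0.284). Megf6 (1432 and 2149 in granuloma, 185 and 94.7 in fibrosarcoma) and Cthrc1 went in the same order. These 5 genes were chosen for the gap between the 2 kinds, so that no test of that gap is given. Collagens had a median difference of 4.42 in granuloma, where 16 of 18 rose, and 2.96 in fibrosarcoma, where 11 did. The cell cycle genes had 3.57 with 26 of 32 rising and 4.62 with 28 of 32. In Hmga2, an architectural protein of embryonic chromatin that passed the filter only in the model of 3 groups, the granulomas had 192 and 84.6 and the fibrosarcomas 878 and 1.80, against at most 3.75 in tolerant.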

How the data were processed

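RNA from the injected side of 8 Spalax was sequenced by the authors as single-end reads of stranded libraries, trimmed and, by the study's methods, aligned with TopHat2 to the published Spalax genome and counted per gene with htseq-count (strand setting not given in the sources used here). The submitters' processing notes instead name TopHat 1.4.1, HTSeq, DESeq and the mouse build GRCm38, also for the Spalax libraries, so which genome the deposited values rest on is not settled. The deposited signal is a table of read counts divided by 1 size factor per library. All values were whole multiples of what 1 read is worth (100%, tolerance 1e-06), so whole reads were recovered. Of 27988 gene names, 2387 held commas, which were read as the letter t, since 2276 then matched a mouse symbol against 98 with the commas dropped. All columns had a sample.

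Values were tested by limma 3.58.1 (trend) in R 4.3.3 on log2(value + 1), with Benjamini-Hochberg adjustment over all genes tested. The filter was a value of at least 10 in 4 of 8 libraries, or in 2 of 8 in the 3-group model. Standard errors and 95% intervals come from these fits. The alternatives were edgeR 4.0.16 and DESeq2 1.42.0 on recovered reads, other scalings, filters and pseudocounts, sex or months as a covariate, quality weights, and leaving out each library. The pooled limma and edgeR tests were also run on simulated counts with known changes. Those counts had a common spread for all genes and no outlying library, unlike the data. Members and lists were chosen with earlier results of these data known. Named genes were, per list, the first 3 measured members and the largest rise and fall, then the 10 largest rises and falls without overlap, the 5 nearest 0, the 5 in which tolerant 2251 lay farthest above its group and the 5 with the largest gap between the kinds of tumor. Any other gene was chosen after its values were seen. Each library is 1 animal. No 2 libraries of the same group were copies of each other, and pairs across groups were not compared for this. Some genes chosen by this rule are not reported here. Sequences were not analysed here.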

Additional observations from a re-analysis of the deposited data

Results flagged for a closer look

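Of 135 genes examined, 11 had a tolerant library whose gap to the nearest of the other 3, as a share of the range of all 4 on the log2 scale, exceeded Dixon's critical value, and in all 11 that library was 2251. Chance alone would be met in about 1 in 20 groups of 4, and the genes of 1 library are not independent. Tolerant 2251 lay above the other 3 in Anln (39.8 normalized read counts), Cdkn1a (638), Fancd2 (96.1), Clspn (16.5) and Arg1 (18.0). It also lay above them in Krt5 (343), Mmp12 (1606.5), Col6a5 (1927), Spp1 (23083) and Krt15 (288), but these 5 had been chosen because 2251 stood highest in them. It lay below the others in Apobec2 (16832), an RNA-editing family member of muscle. In Anln, Fancd2, Clspn and Arg1 the value of 2251 was still below every tumor, whereas in Cdkn1a, Mmp12, Col6a5 and Spp1 it was above every tumor. What sets 2251 apart was not tested.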

How the results depend on the processing

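No paired analysis was possible because tolerant and tumor-bearing libraries come from different animals, with no animal number shared between the groups. The number of genes called between tumor and tolerant stayed within 1.5 times its value in 20 of 21 alternatives and fell to 4387 with only the animals of 18 and 30 months. The calls of at least 4-fold stayed within 1.5 times in all 21. Leaving out 1 library at a time gave 5034 to 7879 calls, and 2572 to 4062 of at least 4-fold. For granuloma the ranges were 1485 to 6364 and 1358 to 3838, and for fibrosarcoma 2481 to 6734 and 1984 to 4049. The low ends come from fits with fewer libraries. Where 1 tumor of a kind is left, it is assumed to vary like the other groups. Of 105 single genes followed and called, 66 kept the call in every alternative and 0 changed direction, and 179 of 2201 values lost the call.

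Reversals were limited to genes that were not called. With equal totals of reads the difference was 0.65 for Rnf41, 0.65 for Znf706, 0.64 for Gart, 0.63 for Cnot2, 0.65 for Tlk1 and 0.21 for Cd163. With TMM it was 0.00040 for Rnf41 and 0.0034 for Tlk1, with months as a covariate 0.0073 for Rnf41 and 0.026 for Znf706, and with quality weights 0.0074 for Rnf41, 0.051 for Znf706, 0.032 for Gart and 0.54 for Spp1. With edgeR it was 0.0041 for Gart, 0.0078 for Tlk1, -1.33 for Mmp12, -1.59 for Col6a5 and -1.07 for Krt14, and with DESeq2 -1.37, -1.61 and -1.12 for the last 3. With only 18 and 30 months it was -0.089 for Dcn, -0.48 for Lum, 0.066 for Znf706, 0.041 for Cnot2 and 0.064 for Tlk1. Leaving out 1 library gave -0.22 to 1.12 for Dcn, 0.85 to 2.90 for Lum, -0.034 to 0.037 for Rnf41, -0.063 to 0.024 for Znf706, -0.072 to 0.063 for Gart, -0.093 to 0.037 for Cnot2, -0.088 to 0.045 for Tlk1, 1.97 to 4.90 for Mmp12, 0.82 to 3.83 for Col6a5, -1.89 to 1.24 for Spp1, -0.86 to -0.20 for Cd163 and -0.25 to 2.43 for Krt14. The cause was not tested.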

Other observations

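Fat markers were lower in the tumors. The summed normalized read count of 11 adipocyte markers was 14751 to 23734 in tolerant and 392 to 3823 in tumor, and 7 of the 10 markers tested fell. Of 9 nerve and Schwann cell markers tested, 5 fell and 0 rose, beside 24% falling of all genes. With equal totals of reads 3 fell and 1 rose. The summed count of all 12 such markers overlapped between the groups, with 2118 to 8260 in tolerant and 1683 to 4312 in tumor. Fibrosarcoma 2240 held 7499 of Cdk6, 878 of Hmga2 and 16013 of Hmga1, against 19.2, 1.80 and 240.5 in fibrosarcoma 2230. Hmga1, a relative of Hmga2, was chosen after its values were seen.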
